A study of Mus musculus with 6 samples.

Results

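The genes described here are 10 genes of natural killer (NK) cells and other cytotoxic lymphocytes, namely Gzma, Gzmb, Prf1, Nkg7, Klrd1, Klrk1, Klrb1c, Ncr1, Eomes and Tbx21. They were chosen by symbol from a deposited table of 45038 genes, and all 10 were found. RNA had been sequenced from cells sorted from the hearts of C57BL/6 mice that carried Tie2-Cre and Rosa-LSL-tdTomato, a reporter that stays on in every cell whose lineage has used the Cre. The 3 MI libraries came from infarct tissue taken 3 weeks after the left anterior descending coronary artery had been tied off. The 3 Normal libraries came from normal left ventricle, labelled as taken without that surgery, and carry the same genotype. The protocol text, which is the same for both groups, gives the mice as 6 to 8 weeks old. In both groups the sort had kept tdTomato-positive cells that lacked F4/80, an antigen of macrophages. The title numbers Ms1535, Ms1537 and Ms1608 occur in both groups, and no label says how the samples of a group relate, so that a p-value here reflects only how far these libraries spread, which may be technical.

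NK cells are lymphocytes of the innate immune system that kill infected or stressed cells without a rearranged antigen receptor. They release granules in which perforin opens the target's membrane and granzymes, which are proteases, enter through it. Killing is set by a balance of activating and inhibiting surface receptors, and the T-box transcription factors Eomes and Tbx21 direct the maturation of the cells. CD8 T cells share much of this equipment. The Tie2 promoter is used by endothelial cells and also early in blood cell development, so that a Tie2-Cre reporter marks lymphocytes too, and F4/80 does not mark them.

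Normal Ms1608 stood apart from the other libraries and went against the endothelial title of the series. Across the 10168 tested genes its log2(FPKM + 1) values correlated with those of the other libraries at 0.54 to 0.68, whereas the other 5 correlated with each other at 0.80 to 0.92. Its summed FPKM (fragments per kilobase of transcript, scaled to the mapped fragments of the library) over 20 endothelial genes was 76.1, while Normal Ms1535 had 5102, Normal Ms1537 had 6399 and the MI libraries had 1130.1 to 4917. Its summed FPKM over 18 genes shared by leukocytes was 4210.1, against 296 and 431 in the other Normal libraries and 2278 to 2566 in MI. The endothelial receptor gene Kdr was at 0.486 FPKM in it, against 44.6 and 73.9 in Normal Ms1537 and Ms1535. Differences are therefore given with and without Normal Ms1608. The depth read from the steps between low values was 33.7 to 47.2 M fragments per library, more than the labels' protocol states, and this was not reconciled.

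**Figure D1:**
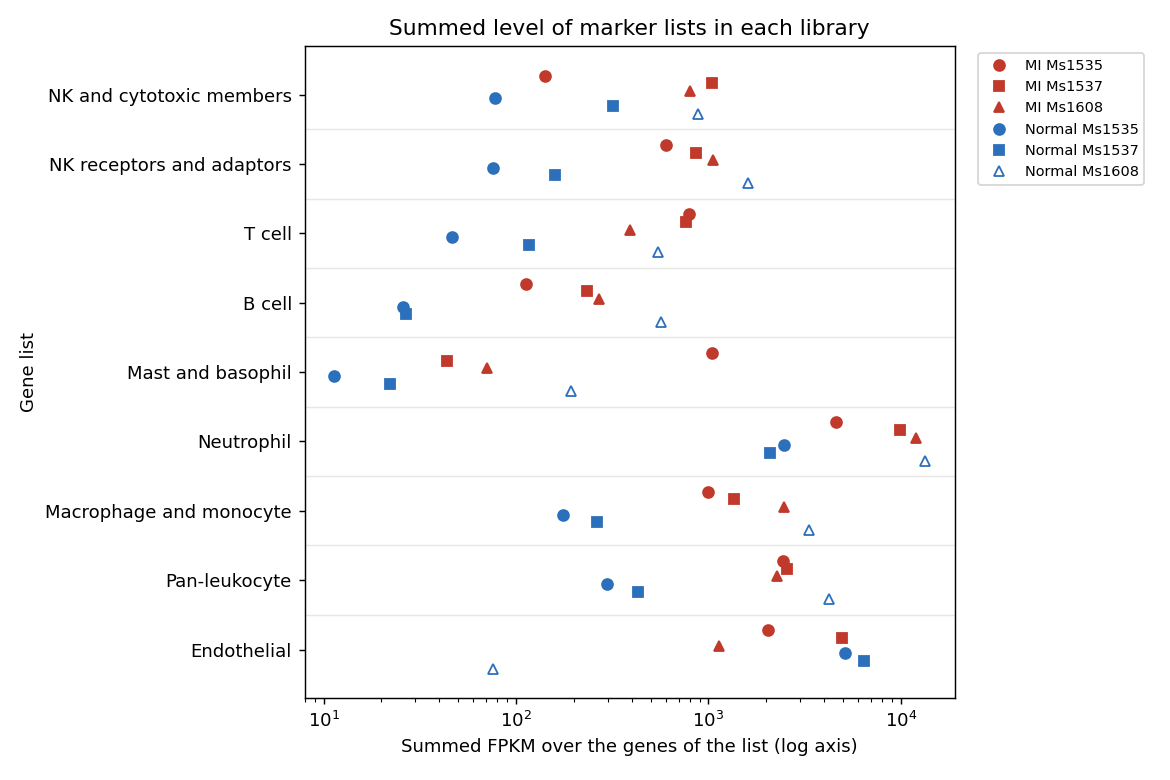
Summed FPKM (log axis) over the genes of each marker list in each of the 6 libraries, with MI in red and Normal in blue. Normal Ms1608, drawn open, has the lowest endothelial sum at 76.1 and the highest pan-leukocyte sum at 4210.1. Normal Ms1535 and Ms1537 have the lowest sums of each leukocyte list shown other than the NK and cytotoxic members. For the members, MI Ms1535 at 141 lies below Normal Ms1537 at 318. Most of these sums is Gzma, at 80.3 FPKM in MI Ms1535 and 288 FPKM in Normal Ms1537. Every member but Gzma and Prf1 has all MI libraries above Normal Ms1535 and Ms1537.

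Transcripts of all 10 genes were present in the sorted cells of infarct tissue, and none of the 8 that could be tested passed the adjusted threshold between MI and Normal. In 8 of the 10 genes every MI library lay above both Normal Ms1535 and Normal Ms1537, the exceptions being Gzma and Prf1. Of 8 genes that passed the filter of at least 1 FPKM in at least 3 libraries, 0 passed the threshold of 0.05 on the adjusted p of limma, a linear model fitted over all genes. Across all tested genes 0.00983% passed, which is 1 gene, Gm24890. The log2 difference was above 0 in 7 of the 8, against 87.2% of all tested genes. At an unadjusted p under 0.05, 2 of the 8 were higher in MI, Klrk1 and Klrb1c, against 16.1% of all tested genes. All MI libraries lay above all Normal libraries in 4 of the 10 genes, Klrd1, Klrk1, Klrb1c and Tbx21, which is 3 of the 8 tested genes against 25.0% of all. In 0 of the 8 all MI libraries lay below all Normal ones, against 0.354%. Above Normal Ms1535 and Ms1537 alone it was 7 of the 8 against 52.6%. Most tested genes were thus higher in MI on the deposited scale, and the counts are not read as particular to the NK genes. The median log2 difference of all tested genes was 0.78, and it was -0.03 after median-ratio scaling, so that a difference near 0.78 is that of a typical gene. Less RNA per cell and fewer cells of a type cannot be told apart in libraries of this kind.

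**Figure D2:**
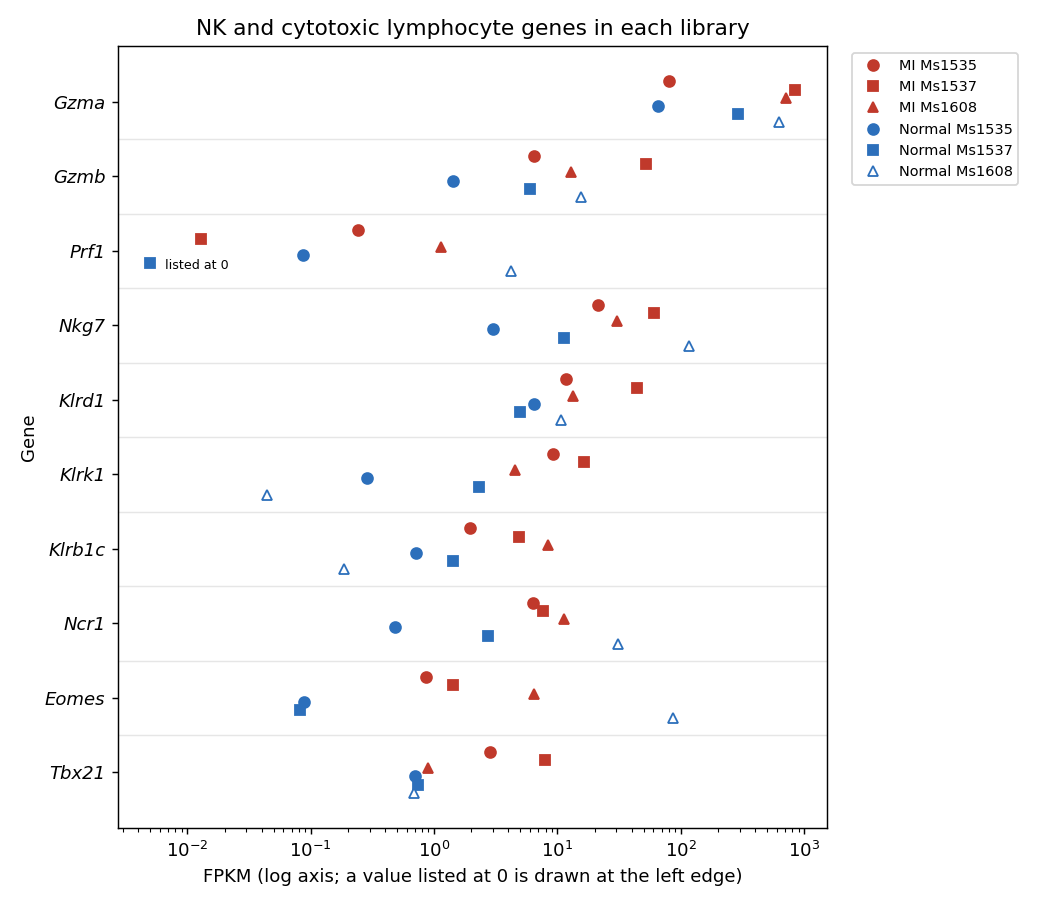
FPKM of the 10 genes (log axis) in each library, with MI in red and Normal in blue and Normal Ms1608 drawn open. Klrd1, Klrk1, Klrb1c and Tbx21 show no overlap between the groups, while Nkg7, Ncr1, Eomes and Prf1 are highest in Normal Ms1608.

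Of the 4 granule genes, Gzma had the highest FPKM in every library. Gzma, which encodes a tryptase-like serine protease, lay on chromosome 13 (chr13:113093825-113100981, minus strand, GRCm38). Its level was 80.3, 844 and 711 FPKM in the MI libraries and 64.7, 288 and 620.2 FPKM in the Normal ones, each in the order of the title numbers, which is kept below. The groups overlapped, with Normal Ms1608 near the highest MI libraries and MI Ms1535 near the lowest Normal library. The log2 difference, MI minus Normal on log2(FPKM + 1), was 0.68 (SE 1.05, limma adjusted p = 0.764), and 1.41 (SE 1.01, adjusted p = 0.336) without Normal Ms1608. It was -0.21 without Normal Ms1535, -0.41 after median-ratio scaling and -0.057 after upper-quartile scaling.

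Gzmb encodes granzyme B, which cleaves caspases and other proteins after aspartate and starts apoptosis in the target cell (chr14:56258838-56262260, minus strand). It had 6.50, 52.4 and 12.8 FPKM in the MI libraries, against 1.43, 6.02 and 15.4 FPKM in the Normal ones, in that order. MI Ms1537 held far more than any other library, and Normal Ms1608 lay between the MI libraries. By limma its log2 difference was 1.44 (SE 0.96, adjusted p = 0.445), and 2.10 (SE 0.84, adjusted p = 0.136) without Normal Ms1608. In FPKM, which is per length, Gzma exceeded Gzmb 12.4-fold, 16.1-fold and 55.5-fold in the MI libraries and 45.4-fold, 47.9-fold and 40.2-fold in the Normal ones.

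Perforin, the pore-forming protein, was low beside these granzymes. Prf1 (chr10:61297833-61304680, plus strand) had 0.242, 0.0130 and 1.13 FPKM in MI and 0.0858 FPKM in Normal Ms1535, was listed at 0 in Normal Ms1537 and had 4.20 FPKM in Normal Ms1608. On its longest coding transcript of 2474 bases these levels correspond to about 26.5, 1.21 and 88.9 fragments in MI and 8.45 and 356 fragments in Normal Ms1535 and Ms1608. MI Ms1537, the library richest in both granzymes, thus held about 1.21 fragments of Prf1, under the 3 fragments used as a floor. Prf1 did not pass the filter. In a fit without any filter its log2 difference was -0.36 (limma adjusted p = 0.830).

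Nkg7 encodes a granule membrane protein that cytotoxic lymphocytes need for degranulation (chr7:43437073-43438249, plus strand). Its level was 21.1, 60.2 and 30.5 FPKM in the MI libraries, against 3.01, 11.4 and 117 FPKM in the Normal ones. Normal Ms1608 was the highest of the 6 libraries, and the other Normal libraries were the lowest. The log2 difference was 0.95 (SE 1.13, limma adjusted p = 0.680), and 2.31 (SE 0.64, adjusted p = 0.0711) without Normal Ms1608. It was -0.13 without Normal Ms1535 and -0.075 after median-ratio scaling.

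In 3 of the 4 receptor genes all MI libraries lay above all Normal ones, which was so for 25.0% of all tested genes. Klrb1c, Klrd1 and Klrk1 lie within the NK gene complex on chromosome 6. Klrk1 encodes NKG2D, an activating receptor for stress-induced ligands (chr6:129610323-129623864, minus strand). It had 9.19, 16.4 and 4.50 FPKM in the MI libraries, and 0.284, 2.32 and 0.0445 FPKM in the Normal ones. All MI libraries were above all Normal libraries, and Normal Ms1608 was the lowest, at about 4.95 fragments on the longest coding transcript. Its log2 difference of 2.59 was the largest of the tested genes of the list (SE 0.72, limma adjusted p = 0.245), and it was 2.26 (SE 0.66, adjusted p = 0.0760) without Normal Ms1608. Without both Ms1608 libraries it was 2.69 (SE 0.62, adjusted p = 0.0433), a fit in which 14.0% of all tested genes were called higher in MI and in which Klrk1 was the only 1 of the 8 called.

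Klrb1c encodes NK1.1, the antigen by which NK cells of C57BL/6 mice are commonly stained (chr6:128778485-128789215, minus strand). Its level was 1.94, 4.91 and 8.40 FPKM in the MI libraries, and 0.713, 1.43 and 0.185 FPKM in the Normal ones. The groups did not overlap, and Normal Ms1608 was again the lowest library. The log2 difference was 1.68 (SE 0.61, limma adjusted p = 0.255), and 1.42 (SE 0.58, adjusted p = 0.140) without Normal Ms1608. Klrb1c has close relatives beside it, and how the authors' counting divided reads among them is not given in the sources used here.

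Klrd1 encodes CD94, which pairs with NKG2 chains to read the non-classical MHC molecule Qa-1 (chr6:129591782-129598775, plus strand). It had 11.6, 44.2 and 13.4 FPKM in the MI libraries, and 6.42, 4.98 and 10.7 FPKM in the Normal ones. The groups did not overlap, but MI Ms1535 lay close above Normal Ms1608. By limma its log2 difference was 1.33 (SE 0.75, adjusted p = 0.376), and 1.60 (SE 0.63, adjusted p = 0.130) without Normal Ms1608. Klrc1, the inhibiting partner NKG2A, was at 3.27, 3.36 and 4.92 FPKM in the MI libraries against 0.0636, 0.950 and 1.48 FPKM, and by limma it differed by 1.47 on the log2 scale (SE 0.53, adjusted p = 0.255), or by 1.74 (SE 0.47, adjusted p = 0.0663) without Normal Ms1608.

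Ncr1 encodes NKp46, an activating receptor that marks NK cells and some other innate lymphoid cells and is largely absent from T cells (chr7:4337724-4345164, plus strand). It had 6.39, 7.64 and 11.3 FPKM in the MI libraries, and 0.483, 2.74 and 30.8 FPKM in the Normal ones. The MI libraries lay close together, between the lower pair of Normal libraries and Normal Ms1608. The log2 difference was 0.72 (SE 1.05, limma adjusted p = 0.748), and 1.97 (SE 0.57, adjusted p = 0.0752) without Normal Ms1608. It was -0.24 without Normal Ms1535 and -0.15 after median-ratio scaling.

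**Figure D3:**
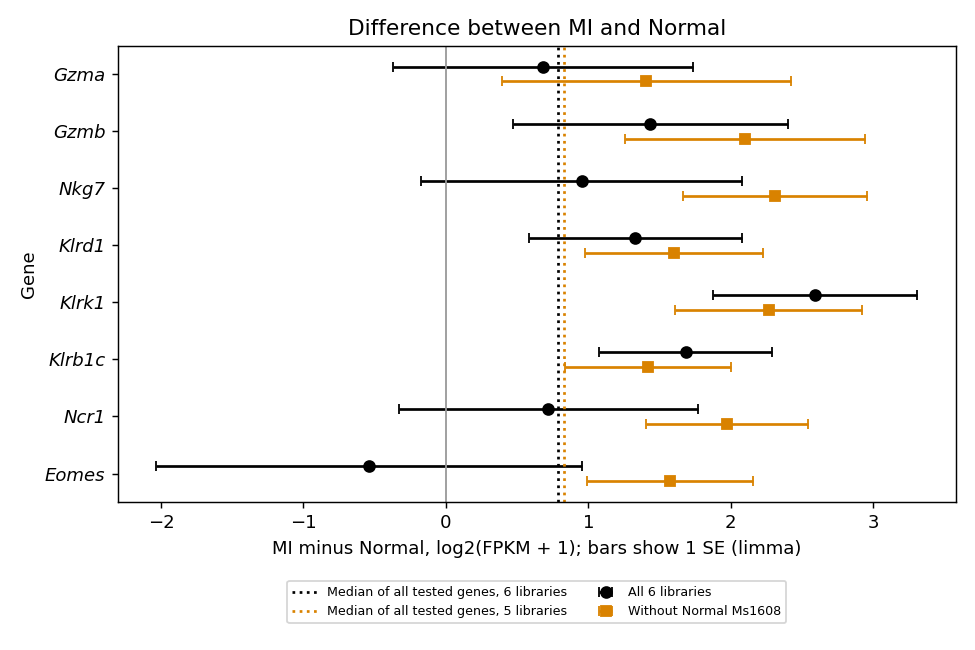
Log2 difference, MI minus Normal, of the 8 tested genes with 1 SE from limma, for all 6 libraries (black) and without Normal Ms1608 (orange). Dotted lines mark the median of all tested genes, 0.78 and 0.83. Eomes moves from -0.54 to 1.57 and Klrk1 from 2.59 to 2.26.

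The members did not move together in Normal Ms1608. Nkg7, Ncr1, Eomes and Prf1 were higher there than in any other library, which was so for 26.8% of all tested genes. Klrk1, Klrb1c and, by little, Tbx21 were lower there than anywhere else, which was so for 44.1%. Prf1 and Tbx21 were not among the tested genes. Both orders were common among all tested genes, and the split is not read as particular to the members. RefSeq windows (GRCm38.p6) from 250 bases before to 50 after the annotated start were found for 9 of the 10 genes. The windows of Nkg7 and Ncr1, from the higher set, and of Klrb1c and Klrk1, from the lower set, are printed because the same short letters occur in all 4 although the levels went opposite ways in that library. Capitals mark TGTGGT or its complement ACCACA, the core bound by Runx factors. The windows are chr7:43436888-43437187 (plus strand) for Nkg7, chr7:4337465-4337764 (plus) for Ncr1, chr6:128788592-128788891 (minus) for Klrb1c and chr6:129623815-129624114 (minus) for Klrk1.
Nkg7: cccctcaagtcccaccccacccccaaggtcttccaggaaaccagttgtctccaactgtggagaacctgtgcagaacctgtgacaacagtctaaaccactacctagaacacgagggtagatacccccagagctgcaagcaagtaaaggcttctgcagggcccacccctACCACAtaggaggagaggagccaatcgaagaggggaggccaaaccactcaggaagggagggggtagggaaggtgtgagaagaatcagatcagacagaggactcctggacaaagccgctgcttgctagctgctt
Ncr1: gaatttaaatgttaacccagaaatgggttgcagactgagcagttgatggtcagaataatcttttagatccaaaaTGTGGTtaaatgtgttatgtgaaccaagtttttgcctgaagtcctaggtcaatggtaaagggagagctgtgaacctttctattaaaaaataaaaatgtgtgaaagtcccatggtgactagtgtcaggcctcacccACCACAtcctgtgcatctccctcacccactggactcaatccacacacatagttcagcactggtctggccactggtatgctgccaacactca
Klrb1c: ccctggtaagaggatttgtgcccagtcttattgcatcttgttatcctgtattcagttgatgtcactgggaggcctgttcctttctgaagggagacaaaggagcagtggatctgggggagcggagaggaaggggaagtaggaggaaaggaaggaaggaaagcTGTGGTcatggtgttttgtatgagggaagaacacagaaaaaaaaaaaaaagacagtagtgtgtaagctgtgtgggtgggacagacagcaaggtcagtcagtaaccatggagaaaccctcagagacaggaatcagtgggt
Klrk1: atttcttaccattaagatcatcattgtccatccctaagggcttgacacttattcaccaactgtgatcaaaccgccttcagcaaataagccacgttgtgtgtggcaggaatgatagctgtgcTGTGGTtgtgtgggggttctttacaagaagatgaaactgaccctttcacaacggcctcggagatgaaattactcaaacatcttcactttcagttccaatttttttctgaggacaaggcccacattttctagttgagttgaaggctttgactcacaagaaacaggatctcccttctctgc
The first capital letter lies 83 bases before the start in Nkg7, 176 and 41 in Ncr1, 89 in Klrb1c and 129 in Klrk1.

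On either strand, TGTGGT was found in the windows of 7 of the 9 genes, namely Gzma, Gzmb, Prf1, Nkg7, Klrk1, Klrb1c and Ncr1, and not in those of Eomes and Tbx21. Of 27025 genes with a window, 18.9% held it. The T-box core AGGTGT was in 3 of 9 windows, those of Nkg7, Gzma and Prf1, against 15.7% of genes, and the longer AGGTGTGA in that of Nkg7, against 1.48%. The Ets core GGAAGT was in 3 of 9, against 26.5%, and AGGAAG, which overlaps it in part, in 4 of 9, against 38.4%. The STAT pattern TTCNNNGAA was in 2 of 9, against 9.55%. GGAAGTG and TGACGTCA were in 0 of 9, against 12.5% and 2.03%. A match is a description of letters, and binding was not measured. Runx3 and Runx1, named for this motif after their values were seen, had 1.88, 1.48 and 2.10 FPKM and 10.4, 8.46 and 5.21 FPKM in MI. In Normal they had 0.219, 0.378 and 2.63 FPKM and 0.762, 0.618 and 14.3 FPKM, so that both were highest in Normal Ms1608.

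The T-box factors differed in Normal Ms1608, where Eomes was far above and Tbx21 close to its level in the other Normal libraries. Eomes, which is needed for the full maturation of NK cells (chr9:118478212-118486132, plus strand), had 0.858, 1.43 and 6.45 FPKM in the MI libraries, and 0.0885, 0.0820 and 86.4 FPKM in the Normal ones. Its level in Normal Ms1608 was above every MI library, and its levels in the other Normal libraries were below all of them. The log2 difference was -0.54 (SE 1.50, limma adjusted p = 0.876), and 1.57 (SE 0.58, adjusted p = 0.118) without Normal Ms1608, so that this library set the sign. Eomes reached 1 FPKM only in MI Ms1537, MI Ms1608 and Normal Ms1608. It thus passed the filter, which used all 6 libraries in both fits, only through Normal Ms1608. With a pseudocount of 0.1 the log2 difference of Eomes was 0.56.

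Tbx21 encodes T-bet, the T-box factor of interferon-gamma producing lymphocytes (chr11:97098071-97115331, minus strand). It had 2.82, 7.95 and 0.885 FPKM in the MI libraries, and 0.697, 0.743 and 0.681 FPKM in the Normal ones. The groups did not overlap, but MI Ms1608 lay little above the Normal libraries, which were alike. Only MI Ms1535 and MI Ms1537 reached 1 FPKM, so Tbx21 did not pass the filter. Without any filter its log2 difference was 1.23 (limma adjusted p = 0.649). The ratio of Eomes to Tbx21 in FPKM was 0.304 and 0.180 in MI Ms1535 and Ms1537 and 0.127 and 0.110 in Normal Ms1535 and Ms1537. In MI Ms1608 it was 7.29 and in Normal Ms1608 it was 127, so both libraries numbered Ms1608 had more Eomes than Tbx21 and the other 4 had less.

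Leukocyte RNA was low in Normal Ms1535 and Ms1537 and highest in Normal Ms1608, an order that Nkg7 and Ncr1 shared and Klrk1 and Klrb1c did not. Ptprc, which encodes the leukocyte antigen CD45, had 68.7, 77.9 and 75.9 FPKM in the MI libraries, and 3.13, 4.72 and 174 FPKM in the Normal ones. Each member was also divided by Ptprc within its library, as a description. Gzma was at 1.17, 10.8 and 9.37 times Ptprc in MI, at 20.7 and 61.1 times in Normal Ms1535 and Ms1537 and at 3.57 times in Normal Ms1608. Klrd1 was at 0.170, 0.568 and 0.177 times Ptprc in MI against 2.05, 1.05 and 0.0616 times in Normal. Relative to Ptprc, both were thus highest in Normal Ms1535 and Ms1537. By level, Klrd1 and Ptprc were both lowest in these libraries.

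In 6 of the 10 genes, Gzma, Nkg7, Klrd1, Klrb1c, Ncr1 and Tbx21, all MI ratios to Ptprc lay below both of these Normal libraries. That was 5 of the 8 tested genes, against 88.9% of all other tested genes, so that a lower ratio to Ptprc in MI is what most genes gave. Klrk1 was an exception, at 0.134, 0.211 and 0.0592 times Ptprc in MI and 0.0908, 0.491 and 0.000256 times in Normal. On log2(FPKM + 1) the median over the 10 genes of the difference to Ptprc, MI minus Normal, was -1.13, and 9 of the 10 were below 0. Over the 8 tested members it was -1.08 with 7 below 0, against a median of -1.44 and 95.8% below 0 over all tested genes. The choice of leukocyte gene mattered, since 0 of the 10 ratios to Coro1a, an actin-binding protein of leukocytes, had all MI libraries below both Normal Ms1535 and Ms1537, against 65.8% of all tested genes. The median difference was -0.31 against Coro1a, where 5 of the 8 tested members were below 0 against 77.6% of all tested genes, and -0.53 against the mean of the 18 pan-leukocyte genes.

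**Figure D4:**
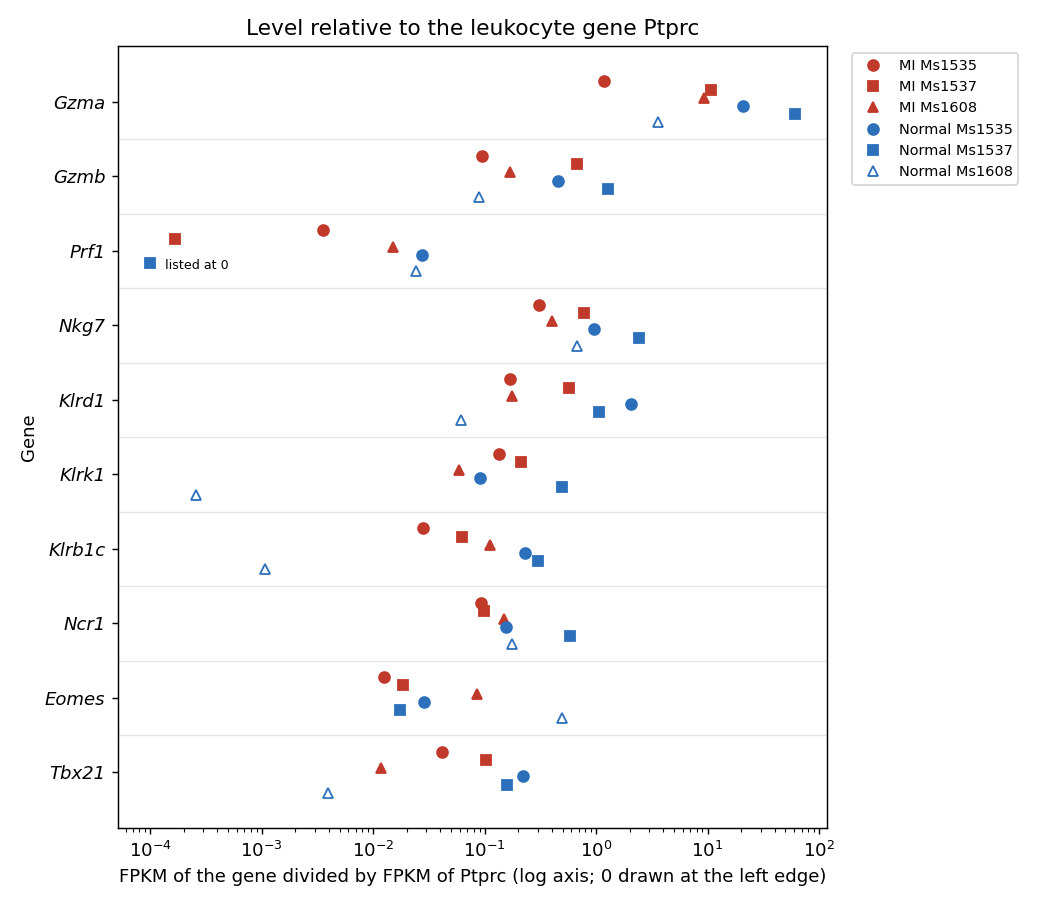
FPKM of each of the 10 genes divided by the FPKM of Ptprc in the same library (log axis), with MI in red and Normal in blue and Normal Ms1608 drawn open. For Gzma the ratio is 20.7 and 61.1 in Normal Ms1535 and Ms1537 and 1.17 to 10.8 in MI.

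T cells share granzymes, Nkg7, Klrk1 and Eomes with NK cells, and their markers were present in every library. The summed FPKM of 20 T cell genes was 795, 766 and 389 in MI and 46.7, 117 and 546 in Normal, with no defining marker at 0 in any library. Within MI this sum was lowest in Ms1608, whereas the summed FPKM of the 10 members was 141, 1039 and 800.3 and lowest in Ms1535. Most of the member sum was Gzma, at 80.3, 844 and 711 FPKM. Among the MI libraries Klrk1 and Tbx21 were lowest in Ms1608, like the T cell sum. Prf1 was lowest in Ms1537, and the other members were lowest in Ms1535. Cd3e, a chain of the T cell receptor complex, had 12.5, 69.1 and 1.96 FPKM in the MI libraries against 0.968, 3.39 and 15.7 FPKM. MI Ms1537 held the most Cd3e, as it did of Gzma, Gzmb, Klrd1, Klrk1 and Tbx21. Other T cell genes peaked elsewhere. Of the 4 with the highest mean FPKM, Trbc1 and Trbc2 were highest in MI Ms1535, at 235 and 130 FPKM. Lat was highest in MI Ms1537, at 140 FPKM, and Cd3d in Normal Ms1608, at 122 FPKM. Cd8a, the co-receptor of cytotoxic T cells, had 5.26, 10.9 and 3.26 FPKM against 0.536, 1.35 and 1.14 FPKM, and Cd4 reached no more than 1.37 FPKM in any library. The part of T cells in the levels of the shared genes was not tested. None of the 18 tested T cell genes passed over all 6 libraries by limma. At an unadjusted p under 0.05, 8 were higher in MI, against 16.1% of all tested genes. Without Normal Ms1608, 10 of 18 were called higher in MI and 15 of 18 pan-leukocyte genes were, against 4.45% of all tested genes called higher and 4.51% called in either direction. In that fit 0 of 8 members were called, and 8 of 8 had a log2 difference above 0, as 87.7% of all tested genes did. The 8 include Eomes, which passed the filter only through Normal Ms1608.

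Other receptors and adaptors of NK cells gave 0 calls among 17 tested of 28 genes over all 6 libraries. At an unadjusted limma p under 0.05, 6 were higher in MI, against 16.1% of all tested genes. Without Normal Ms1608, 6 were called higher in MI, against 4.45% of all tested genes. The median log2 difference of these receptors and adaptors was 1.47, that of the 8 members 1.14 and that of all tested genes 0.78. Without Normal Ms1608 these medians were 2.16, 1.79 and 0.83. Tyrobp, the adaptor DAP12 of activating receptors that myeloid cells also use, had 150.2, 199 and 287 FPKM in the MI libraries against 24.3, 53.8 and 328 FPKM. Hcst, the adaptor DAP10 of NKG2D, had 62.2, 109 and 108 FPKM against 4.72, 29.8 and 192 FPKM. Both adaptors were highest in Normal Ms1608, where Klrk1, their receptor partner, was lowest. Klrg1, an inhibiting receptor of mature NK and effector T cells, had 73.6, 88.5 and 45.1 FPKM against 0.260, 19.4 and 34.3 FPKM. Its groups did not overlap (log2 difference 2.80, SE 1.14, limma adjusted p = 0.280, and 3.73, SE 1.00, adjusted p = 0.0657 without Normal Ms1608).

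The Ly49 receptors, a family of similar genes whose reads the counting could split, gave 0 calls among 7 tested of 11 genes. Their median log2 difference was 0.61. Klra4 had 5.63, 9.81 and 22.7 FPKM in the MI libraries against 0.710, 4.82 and 47.4 FPKM, and Klra7 had 0.0924, 4.48 and 2.37 FPKM against 0.153, 0.955 and 50.6 FPKM. Both were highest in Normal Ms1608, as Ncr1 and Eomes were. Klra17, by contrast, spanned 10.3 to 28.5 FPKM in MI and 2.99 to 5.00 FPKM in Normal, with no overlap between the groups (log2 difference 1.87, SE 0.69, limma adjusted p = 0.261, and 1.77, SE 0.56, adjusted p = 0.0897 without Normal Ms1608). All MI libraries lay above all Normal ones in 2 of the 7 tested Ly49 genes, Klra17 and Klra2, against 25.0% of all tested genes. Which cells held these transcripts was not tested.

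Further genes of the cytotoxic granule and its release gave 0 calls among 12 tested of 22 and a median of 1.34. Without Normal Ms1608, 2 were called higher in MI, against 4.45% of all tested genes. Srgn, the proteoglycan serglycin that packs granzymes in many blood cells, had 3893, 2722 and 3646 FPKM in the MI libraries against 1064, 1362 and 6808 FPKM. Ctsc, the protease that activates granzymes, had 67.1, 44.5 and 78.9 FPKM against 5.43, 6.81 and 86.9 FPKM. It was called higher without Normal Ms1608 (log2 difference 3.15, SE 0.46, limma adjusted p = 0.0210) and not with it (1.94, SE 0.99, adjusted p = 0.339). Among other granzymes Gzmk reached 1.30 FPKM in MI Ms1535 and was listed at 0 in MI Ms1537, Normal Ms1535 and Normal Ms1608. Gzmc had 48.0 FPKM in MI Ms1537 and no more than 0.491 FPKM in any other library.

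Cytokines and cytokine receptors of NK cells gave 0 calls among 14 tested of 19 genes and a median of 1.37. Once Normal Ms1608 was left out, 4 were called higher in MI, against 4.45% of all tested genes. Il2rb, the chain of the IL-15 receptor on which NK cells depend, had 25.3, 43.4 and 12.1 FPKM in the MI libraries against 1.03, 2.50 and 0.148 FPKM. The groups did not overlap, and Normal Ms1608 was lowest, the order also seen for Klrk1. By limma its log2 difference was 3.62 (SE 0.76, adjusted p = 0.245), and 3.22 (SE 0.62, adjusted p = 0.0320) without Normal Ms1608. Ifng, the cytokine interferon-gamma, had 5.59, 68.5 and 18.1 FPKM against 0.825, 23.3 and 33.2 FPKM, and Ccl5, a chemokine of cytotoxic lymphocytes, 195, 516 and 338 FPKM against 25.3, 103 and 353 FPKM. The groups overlapped for both. Xcl1, a chemokine that NK cells release, had 17.7, 43.1 and 7.26 FPKM against 2.24, 26.3 and 0.397 FPKM.

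Transcription factors of cytotoxic lymphocytes gave 0 calls among 16 tested of 17 and a median of 1.16. With Normal Ms1608 left out, 3 were called higher in MI, against 4.45% of all tested genes. Id2, which innate lymphocytes require, had 141, 133 and 36.3 FPKM in the MI libraries against 14.9, 19.1 and 219 FPKM. Stat4, which relays IL-12, had 52.8, 32.0 and 49.5 FPKM against 2.34, 3.48 and 250.3 FPKM, and was called higher without Normal Ms1608 (log2 difference 3.53, SE 0.47, limma adjusted p = 0.0210). Ligands of NK receptors and cytokines that act on NK cells gave 0 calls among 12 tested of 23 and a median of 0.66. In the fit without Normal Ms1608, 1 was called higher in MI, against the same 4.45% of all tested genes. H2-T23, which encodes the Qa-1 molecule read by CD94, had 534, 665 and 443 FPKM in the MI libraries against 429.8, 350.0 and 835 FPKM. Il15 had 2.74, 2.84 and 1.43 FPKM against 1.95, 2.78 and 3.63 FPKM (log2 difference -0.19, SE 0.56, limma adjusted p = 0.884). The groups overlapped for both.

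Markers of other cell types, only some of which can hold granzyme transcripts, were present unevenly. Summed FPKM over 12 mast cell and basophil genes was 1045 in MI Ms1535, 43.9 and 70.2 in the other MI libraries, 11.3 and 22.2 in Normal Ms1535 and Ms1537 and 194 in Normal Ms1608. MI Ms1535, highest in these genes, was the lowest MI library for Gzma and Gzmb. Summed FPKM over 9 B cell genes was 113 to 269 in MI and 26.0, 26.7 and 564 in Normal. Over 11 neutrophil genes it was 4575 to 12033 in MI and 2482, 2089.8 and 13382 in Normal, and over 14 macrophage and monocyte genes 999.6 to 2481 and 175, 264 and 3317. Normal Ms1608 was highest in both. Over 7 genes of plasmacytoid dendritic cells, which can express Gzmb, it was 105 to 168 in MI and 65.2, 59.0 and 324 in Normal. Most of the sum in Normal Ms1608 was Ly6d, at 280 FPKM, the only gene of the list that was highest there. Siglech, of the same list, had 16.7, 1.20 and 3.49 FPKM in the MI libraries against 0.0311, 0.103 and 1.63 FPKM. Summed FPKM over 10 genes of type 2 and 3 innate lymphoid cells was 115, 41.6 and 14.9 in MI and 5.24, 2.48 and 37.9 in Normal. Over 10 fibroblast genes it was 5954, 5607 and 1013 in MI and 717, 953 and 199 in Normal, and over 8 cardiomyocyte genes 208, 146 and 966 in MI and 789.6, 430.2 and 8.38 in Normal. By limma 0 genes of these lists passed over all 6 libraries. At an unadjusted p under 0.05, 9 of the 10 fibroblast genes were higher in MI, against 16.1% of all tested genes. Without Normal Ms1608, calls higher in MI were made for 3 of 9 tested B cell genes, 3 of 11 macrophage and monocyte, 2 of 9 neutrophil, 2 of 6 mast cell and basophil and 1 of 6 plasmacytoid dendritic cell genes, and for 0 innate lymphoid, fibroblast or cardiomyocyte genes. Of all tested genes 4.45% were called higher in that fit. The F4/80 gene Adgre1 was at 0.282, 1.70 and 7.21 FPKM in the MI libraries, and no more than 0.247 FPKM in the Normal ones. The part of these cells in the levels of the members was not tested.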

How the data were processed

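Gene expression had been measured by RNA sequencing of sorted cells, with cDNA amplified by T7 transcription, per the labels' protocols. The authors deposited FPKM for every gene in each library. STAR 2.4.2a, Cufflinks 2.2.1 and GRCm38 are listed in the submitters' processing notes. Annotation release, strand setting and multi-mapping rules are not given in the sources used here. Positions are from GENCODE M21 on GRCm38, where 44394 of the 45038 identifiers (98.6%) were found, and promoter windows from RefSeq.

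Depth was fitted from low values of genes with a single transcript, after 150 bases were taken off the length. Within 0.1 of a whole fragment lay 92.8% to 94.5% of them, against 20% if evenly spread. The step was fitted to the same values, and floors of 3 fragments cover counting error only.

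MI was compared with Normal by limma 3.58.1 (R 4.3.3) on log2(FPKM + 1), a scale that understates changes of low genes, using limma's mean-variance trend and Benjamini-Hochberg adjustment over the 10168 genes that had at least 1 FPKM in at least 3 libraries. An exact two-sided permutation test of 3 against 3 cannot go below p = 0.1 and was not used. The members and the 17 other lists were chosen with earlier results of these data known. Named are all members, up to 4 genes per other list by mean FPKM, and a fixed set. Alternatives covered pseudocount, filter, scaling, trend, replicate block, and libraries left out.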

Additional observations from a re-analysis of the deposited data

How the results depend on the processing

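The number of genes called by limma over all tested genes was 1 with all 6 libraries and ranged from 1 to 459 when 1 library was left out. It was 459 without Normal Ms1608 and 2 without MI Ms1537, and 1 without each of the others. Without both Ms1608 libraries it was 1469. It was also 1 under 2 other pseudocounts, 2 other filters, 3 scalings and no trend. With the title number as replicate block it was 1, with 0 members called. The numbers were not taken to pair the samples, since no label states that they mark shared mice. Deviations of libraries with the same number correlated at -0.05, 0.098 and 0.087, and not every library correlated best with its own number. With 3 libraries per group, and Normal Ms1608 apart from the others, these correlations cannot decide whether the samples are paired.

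No member was called with all libraries, and Klrk1 alone was called in 1 of 17 settings (adjusted p = 0.0433 without both Ms1608 libraries). Gzmb, Klrb1c, Klrd1 and Klrk1 stayed above 0 in every setting in which they were tested. Their log2 differences were smaller after median-ratio scaling, at 0.47, 1.04, 0.33 and 1.88, against 1.44, 1.68, 1.33 and 2.59 as deposited. After median-ratio scaling the log2 difference was -0.075 for Nkg7, -0.41 for Gzma and -0.15 for Ncr1, and after upper-quartile scaling -0.057 for Gzma. With 1 library left out it ranged from -0.13 (without Normal Ms1535) to 2.31 for Nkg7, from -0.21 (likewise) to 1.77 for Gzma, from -0.24 (likewise) to 1.97 for Ncr1 and from -1.60 to 1.57 (without Normal Ms1608) for Eomes. Eomes had 0.56 at a pseudocount of 0.1 and 0.97 without both Ms1608 libraries. The cause was not tested. The median of all tested genes was 0.78 as deposited, -0.03 with median-ratio scaling, 0.20 with the upper quartile and -0.05 with quantiles. The median difference to Ptprc was -0.99 as a ratio without a pseudocount, an alternative added after seeing the data. It is over the 9 genes above 0 in every library, of which 7 were below 0, and Klrb1c turned from -0.54 to 0.47.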

Other observations

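Some further values of genes from the lists above were chosen after they were seen. Il22, a cytokine of type 3 innate lymphoid cells and some T cells, had 26.7 FPKM in Normal Ms1608, where the innate lymphoid list summed to 37.9. It had no more than 0.778 FPKM in MI and was listed at 0 in Normal Ms1535 and Ms1537. Cxcr6, a chemokine receptor of tissue-resident lymphocytes, had 329, 26.0 and 15.5 FPKM in the MI libraries, and 1.49, 16.9 and 0.607 FPKM in the Normal ones, so that MI Ms1535 stood far above the rest.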
